A study of Mus musculus with 7 samples.

Results

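Expression of 10 genes of the NRF2 antioxidant pathway and the pentose phosphate pathway was compared between kidney cortices of wild type (WT) and BPS-TA mice. The genes were Nfe2l2, Keap1, Nqo1, Gclc, Gclm, Srxn1, Gsr, G6pdx, Pgd and Taldo1. They were found by gene name in the table of values per kidney, where each of the 10 was present among 22053 entries. BPS-TA mice carry 3 transgenes. The first, ggt-tTA, drives a tetracycline-controlled activator from the ggt promoter, which is active in proximal tubules. TRACK (ggt-HIF1A-M3) expresses a constitutively active HIF1A from the same promoter. The third, BPS, encodes the D10A nickase form of Cas9 with paired guides against Bap1, Pbrm1 and Setd2. It responds to the activator in the absence of doxycycline and descends from a single embryonic stem cell clone. WT mice carry none of these transgenes, so that active HIF1A, the nickase and the guides differed between the groups at once and their contributions cannot be told apart. All mice were C57BL/6 on regular chow, and their age is labelled with the number 10 and both months and weeks as its unit. RNA sequencing values were available for 3 WT kidneys, named WT-5 to WT-7, and for 4 BPS-TA kidneys, namely TC-7 and TC-8 as well as TC-11 and TC-12.

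NRF2, the product of Nfe2l2, is a transcription factor that binds antioxidant response elements together with small MAF proteins and activates genes for detoxification, glutathione synthesis and NADPH supply. KEAP1 holds NRF2 in the cytosol and directs it to degradation, and oxidants or electrophiles release it, so that NRF2 activity is set largely at the protein level and the mRNA of Nfe2l2 need not follow it. The oxidative branch of the pentose phosphate pathway makes NADPH from glucose 6-phosphate, whereas its other branch exchanges carbon between sugar phosphates. In the kidney the proximal tubule is rich in glutathione and its enzymes.

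The start regions of the genes are shown because NRF2 and HIF1A act through short DNA elements. RefSeq start windows of 300 bases (250 before and 50 after the start, GRCm38.p6) were matched for 8 of the 10 genes, with Gclc and Gsr unmatched and Pgd represented by a second start. The letters TGACNNNGC, the core of the antioxidant response element, were searched on both strands and occurred in 5 of the 8 genes. By window this was 5 of their 9 windows, compared with 12.4% of all 32851 windows. These 5 matches are printed below with 10 bases on either side, along the strand of the match and with the match in capitals. The match in Nfe2l2 lay at chr2:75704885-75704913, that in Gclm at chr3:122245413-122245441, that in Srxn1 at chr2:152105542-152105570, that in G6pdx at chrX:74428919-74428947 and that in Pgd at chr4:149166061-149166089. In Gclm it began 134 bases and in Nfe2l2 240 bases upstream of the start. In G6pdx it began 57 bases upstream, whereas in Srxn1 and Pgd it lay after the start, from bases 29 and 4.
Nfe2l2: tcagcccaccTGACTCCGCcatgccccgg
Gclm: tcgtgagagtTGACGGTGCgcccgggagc
Srxn1: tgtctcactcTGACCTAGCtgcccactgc
G6pdx: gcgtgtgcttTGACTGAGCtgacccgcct
Pgd: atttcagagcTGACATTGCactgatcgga

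The windows of Nqo1, Keap1 and Taldo1 did not contain these letters. The letters ACGTG, the core of the hypoxia response element, were found on either strand in the windows of Keap1, Gclm and G6pdx and in 19.6% of all windows. The 250 bases upstream of Nqo1 (chr8:107403206-107403455, minus strand) and of Gclm (chr3:122245307-122245556, plus strand) are printed since both genes are classic NRF2 targets and only the latter held the core letters. Capitals mark TGACNNNGC and ACGTG, which in Gclm both lay on the opposite strand and therefore appear as their reverse complement. A match of letters is not a binding site, and a window without one says nothing about NRF2.
Nqo1: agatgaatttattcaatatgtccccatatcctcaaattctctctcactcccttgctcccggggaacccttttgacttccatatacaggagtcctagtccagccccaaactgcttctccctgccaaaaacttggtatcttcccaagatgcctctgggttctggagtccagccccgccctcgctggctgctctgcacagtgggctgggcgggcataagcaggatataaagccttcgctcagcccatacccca
Gclm: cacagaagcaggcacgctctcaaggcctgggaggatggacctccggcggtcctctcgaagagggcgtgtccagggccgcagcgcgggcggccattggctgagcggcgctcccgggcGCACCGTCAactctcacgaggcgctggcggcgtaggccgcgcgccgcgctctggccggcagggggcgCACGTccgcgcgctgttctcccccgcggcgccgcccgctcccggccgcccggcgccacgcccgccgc

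Expression was measured as FPKM (fragments per kilobase of transcript, scaled to the number of reads), a level per length that allows genes to be compared with each other. The unit is not named in the table and was inferred from its values, how many reads a kidney had is unknown, and the totals ranged from 1473812.5 to 1808843.3 FPKM. Gpx3 alone made up 55.5% to 61.7% of a kidney's total, so levels of selenoprotein genes were not compared with those of other genes. On the first principal component (65.3% of the variance) the groups parted, and on the second (12.9%) TC-7 and TC-8 lay apart from TC-11 and TC-12. Transcripts of Bap1, Pbrm1 and Setd2 passed the test in 0 of 3 cases, whereas 5 of 5 HIF1 target genes used as a check were higher in BPS-TA kidneys, with a median log2 fold change of 2.73. Of 10 proximal tubule markers 1 was higher and 7 were lower in BPS-TA kidneys, and their summed level lay between 6227 and 6668 FPKM in WT and between 3508 and 4748 FPKM in BPS-TA kidneys. Markers of thick ascending limb and distal tubule (3 of 5), collecting duct (3 of 6) and endothelium (4 of 4) were higher. So were those of fibroblasts (3 of 5), macrophages (9 of 9), B and plasma cells (4 of 4) and red blood cells (5 of 5). None in these lists was called lower. The B and plasma cell markers Cd79a, Cd79b and Mzb1 lay under 1 FPKM in every WT kidney. They passed the filter (an FPKM of 1 in 3 or more kidneys) through BPS-TA kidneys alone, so their calls are a description. Ms4a1 of that list did not pass the filter. The collecting duct marker Slc26a4 did not pass (limma log2 fold change -0.22, adjusted p = 0.0584), though its BPS-TA kidneys all lay below its WT kidneys. With kidney medians aligned, Slc26a4 was called lower (-0.40, adjusted p = 0.00700), and 2 collecting duct markers were higher. Of all tested genes 28.5% were higher and 6.56% lower. The tubule injury markers Havcr1, Lcn2 and Vcam1 were higher as well (3 of 3, median log2 fold change 1.10), and their summed level lay between 4.46 and 4.92 FPKM in WT and between 12.0 and 17.5 FPKM in BPS-TA kidneys. In WT kidneys Havcr1 lay between 0.572 and 0.712 FPKM and Lcn2 between 0.774 and 1.06 FPKM. Both passed the filter only because their BPS-TA kidneys were high. None of 3 podocyte or 2 neutrophil markers passed the test, and T cell markers summed to between 0.966 and 3.79 FPKM. With kidney medians aligned, both neutrophil markers were called lower, S100a8 (-0.54, adjusted p = 0.0208) and S100a9 (-0.81, adjusted p = 0.0396). In whole cortex, fewer cells of a type and less RNA per cell cannot be told apart, and the part of cell composition in the results given here was not tested.

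The 10 genes did not move as one group. Gclc and Keap1 rose, Nqo1, Gsr and Gclm fell, and the other 5 did not pass the test. The test was limma on log2(FPKM + 1) over 12036 genes, with a Benjamini-Hochberg adjusted p under 0.05 as the threshold, and all 10 genes were above its filter with an FPKM of at least 1 in every kidney. Of all tested genes 35% passed, 28.5% with higher and 6.56% with lower levels in BPS-TA kidneys, so 5 of 10 called, 2 higher and 3 lower, stands beside a background in which increases outnumbered decreases. The groups did not overlap for 7 of the 10 (3 higher and 4 lower in BPS-TA), against 43.9% of tested genes (35% higher and 8.87% lower). Over the 10 the median log2 fold change was -0.12, compared with 0.12 over all tested genes, and 7 of 10 lay below the latter. Since the median of all genes lay above 0, the split of calls depended on how kidneys were scaled. Centring each kidney on its median gave 12.6% of genes higher and 20.6% lower, with 2 of the 10 higher and 7 lower, and quantile normalization gave 11.8% higher and 14.3% lower, with 2 of the 10 higher and 4 lower.

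**Figure D1:**
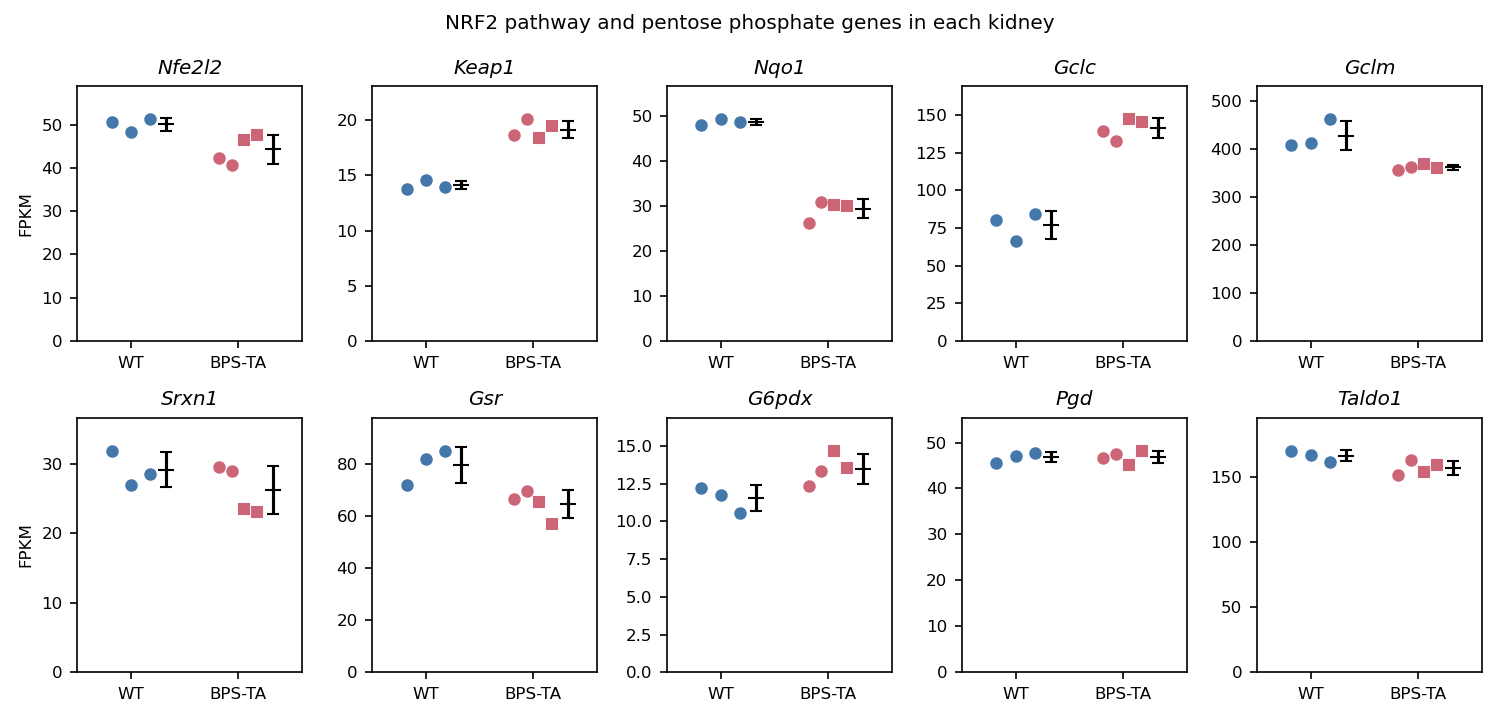
Level (FPKM, linear axis from 0) of the 10 genes in 3 WT and 4 BPS-TA kidneys. Each point is 1 kidney, squares are TC-11 and TC-12, and the bars give the mean ± SD. Nqo1 lay between 26.3 and 31.0 FPKM in BPS-TA kidneys, all below the WT kidneys at 48.2 to 49.4 FPKM, whereas Gclc lay between 133 and 147 FPKM, all above the WT range of 66.1 to 83.9 FPKM.

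Among the regulators, Keap1 rose and Nfe2l2 did not pass the test. Keap1 (ENSMUSG00000003308), the substrate adaptor that hands NRF2 to a ubiquitin ligase, was measured at 13.8, 14.5 and 14.0 FPKM in WT-5, WT-6 and WT-7. It stood at 18.6 and 20.1 FPKM in TC-7 and TC-8 and at 18.4 and 19.5 FPKM in TC-11 and TC-12. All 4 BPS-TA kidneys were above all 3 WT kidneys, and the spread within a group was small beside the gap between them. Means of 14.1 ± 0.384 (SD, n = 3) FPKM for WT and 19.1 ± 0.780 (SD, n = 4) FPKM for BPS-TA kidneys gave a ratio of 1.36. Its log2 fold change was 0.41 with a standard error of 0.055 and a 95% confidence interval from 0.29 to 0.54 (adjusted p = 0.00120). An exact two-sided permutation test over the 35 splits of the 7 kidneys gave p = 0.0286, the smallest it can give. Keap1 stayed above the threshold in all 16 alternative analyses, although 2059 genes had a log2 fold change at least as high.

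Nfe2l2 (ENSMUSG00000015839), which encodes NRF2 itself, stood at 50.7, 48.4 and 51.2 FPKM in WT-5, WT-6 and WT-7. The values were 42.4 and 40.6 FPKM in TC-7 and TC-8 and 46.5 and 47.7 FPKM in TC-11 and TC-12. Every BPS-TA kidney was below every WT kidney, but TC-11 and TC-12 came close to the lowest WT kidney. Its log2 fold change was -0.18 with a standard error of 0.066 and a confidence interval from -0.33 to -0.024 (adjusted p = 0.0717, exact permutation p = 0.0571). The difference passed the threshold after centring (log2 fold change -0.35, adjusted p = 0.00761), after quantile normalization (-0.23, adjusted p = 0.0475) and without TC-11 and TC-12 (-0.27, adjusted p = 0.0307).

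NQO1 is a quinone reductase whose transcript is often used as a readout of NRF2. Nqo1 (ENSMUSG00000003849) fell the most of the 10 genes. It was measured at 48.2, 49.4 and 48.8 FPKM in WT-5, WT-6 and WT-7. TC-7 and TC-8 had 26.3 and 31.0 FPKM, and TC-11 and TC-12 had 30.4 and 30.1 FPKM. The groups were far apart, and TC-7 was the lowest kidney. From a mean of 48.8 ± 0.589 (SD, n = 3) FPKM it fell to 29.4 ± 2.11 (SD, n = 4) FPKM, which is 0.603 times the WT level. The log2 fold change was -0.71 with a standard error of 0.064 and a confidence interval from -0.86 to -0.57 (adjusted p = 0.000209, exact permutation p = 0.0286). It lay between -0.89 and -0.66 in the 16 alternative analyses and passed the threshold in each, and 119 of the 12036 genes had a log2 fold change as low or lower, its own counted.

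Glutamate-cysteine ligase, the rate-limiting enzyme of glutathione synthesis, is made of a catalytic subunit (Gclc) and a modifier subunit (Gclm) that raises its efficiency. Both are NRF2 targets, and they moved in opposite directions. Gclc (ENSMUSG00000032350) stood at 80.5, 66.1 and 83.9 FPKM in WT-5 to WT-7 in turn, and at 139 and 133 FPKM in TC-7 and TC-8. TC-11 and TC-12 had 147 and 145 FPKM. WT-6 was the lowest kidney, and the lowest BPS-TA kidney still exceeded the highest WT kidney by far. The mean rose from 76.9 ± 9.46 (SD, n = 3) to 141 ± 6.59 (SD, n = 4) FPKM, a ratio of 1.84. On the log2 scale the change was 0.87 with a standard error of 0.085 and a confidence interval from 0.68 to 1.07 (adjusted p = 0.000313, exact permutation p = 0.0286). Gclc passed the threshold in all 16 alternative analyses, and 387 genes had a log2 fold change at least as high.

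Gclm (ENSMUSG00000028124) was the most abundant of the 10 transcripts in both groups. It was measured at 408, 412 and 461 FPKM in WT-5 to WT-7 in turn, and at 356 and 361 FPKM in TC-7 and TC-8. TC-11 and TC-12 had 368 and 360 FPKM. The BPS-TA kidneys were closely grouped below all WT kidneys, of which WT-7 stood apart upwards. Means were 427 ± 29.5 (SD, n = 3) and 362 ± 4.94 (SD, n = 4) FPKM, a ratio of 0.846. Limma gave a log2 fold change of -0.24 with a standard error of 0.053 and a confidence interval from -0.36 to -0.11 (adjusted p = 0.0112, exact permutation p = 0.0286). Without TC-11 and TC-12 it was -0.25 and missed the threshold (adjusted p = 0.0514).

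The ratio of Gclm to Gclc within a kidney does not change when a kidney's values are scaled by a common factor. It was 5.07, 6.23 and 5.49 in WT-5 to WT-7 in turn, and 2.56 and 2.73 in TC-7 and TC-8, with 2.50 and 2.48 in TC-11 and TC-12. Gclm was thus more abundant than Gclc in every kidney, and the excess was smaller in each BPS-TA kidney than in each WT kidney. The mean log2 ratio was 1.12 lower, which is 0.460 times the WT ratio (exact two-sided permutation p = 0.0286, 0.0381 after adjustment over the 4 ratios examined). Since Gclm was lower and Gclc higher in every BPS-TA kidney, this separation and its exact p were fixed by those values. Only the size of the ratio can be read. The ratio of Nqo1 to Nfe2l2 was 0.951, 1.02 and 0.952 in the WT kidneys and 0.621, 0.762, 0.652 and 0.630 in the BPS-TA kidneys. It too was lower in every BPS-TA kidney, by 0.55 on the log2 scale (exact permutation p = 0.0286, adjusted p = 0.0381), so Nqo1 was lower by more than Nfe2l2.

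**Figure D2:**
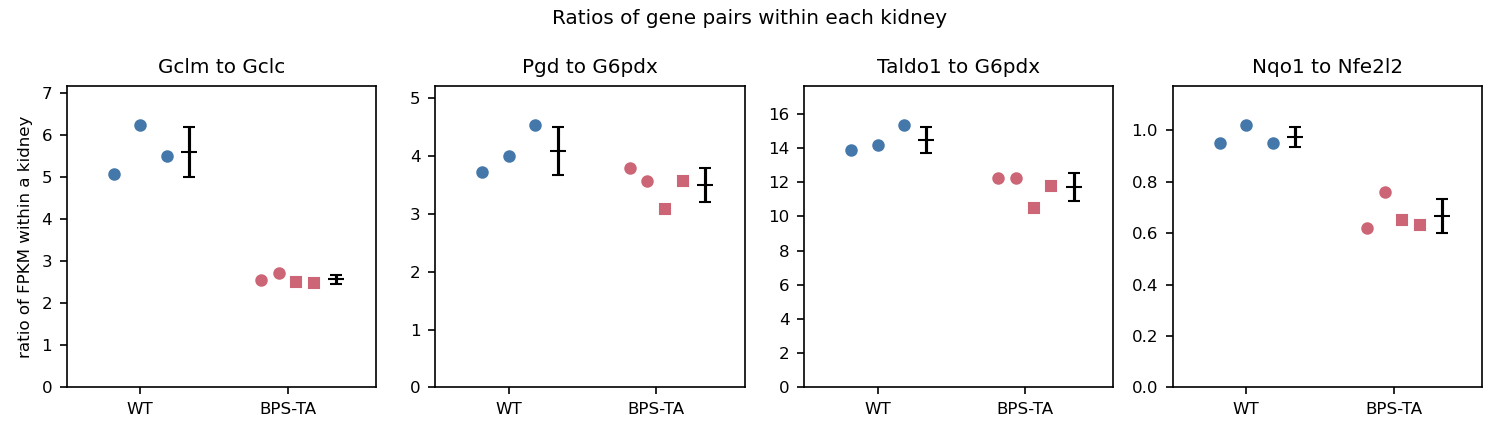
Ratios of FPKM within a kidney (linear axis from 0) for 4 gene pairs in 3 WT and 4 BPS-TA kidneys. Each point is 1 kidney, squares are TC-11 and TC-12, and the bars give the mean ± SD of the ratios. The ratio of Gclm to Gclc lay between 2.48 and 2.73 in BPS-TA kidneys and between 5.07 and 6.23 in WT kidneys, whereas the ratio of Pgd to G6pdx overlapped between the groups.

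Gsr and Srxn1 encode enzymes that restore oxidised thiols. Glutathione reductase, encoded by Gsr (ENSMUSG00000031584), regenerates reduced glutathione with NADPH. Its transcript stood at 71.8, 81.9 and 85.1 FPKM in WT-5 to WT-7 in turn, and at 66.6 and 69.5 FPKM in TC-7 and TC-8. TC-11 and TC-12 had 65.6 and 57.2 FPKM. The groups did not overlap, but TC-8 came close to WT-5. The mean fell from 79.6 ± 6.93 (SD, n = 3) to 64.7 ± 5.30 (SD, n = 4) FPKM, a ratio of 0.813. The log2 fold change was -0.29 with a standard error of 0.083 and a confidence interval from -0.49 to -0.10 (adjusted p = 0.0274, exact permutation p = 0.0286). This call was lost without some kidneys, while the log2 fold change stayed between -0.37 and -0.24 with any 1 kidney left out. The adjusted p was 0.0904 without WT-6 (log2 fold change -0.27), 0.0999 without WT-7 (-0.25), 0.0525 without TC-11 (-0.30), 0.0519 without TC-12 (-0.24) and 0.117 without both TC-11 and TC-12 (-0.22).

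Sulfiredoxin, encoded by Srxn1 (ENSMUSG00000032802), reactivates overoxidised peroxiredoxins. Srxn1 was measured at 31.9, 27.0 and 28.6 FPKM in WT-5 to WT-7 in turn, and at 29.5 and 29.0 FPKM in TC-7 and TC-8. TC-11 and TC-12 had 23.5 and 23.1 FPKM. TC-7 and TC-8 lay within the WT range and TC-11 and TC-12 below it. The log2 fold change of -0.15 (standard error 0.11, confidence interval -0.39 to 0.091) did not pass the test (adjusted p = 0.296, exact permutation p = 0.286). It was -0.31 without TC-7 and TC-8 (adjusted p = 0.0285) and 0.0069 without TC-11 and TC-12 (adjusted p = 0.964), and after centring it was -0.33 (adjusted p = 0.0420). The value for Srxn1 therefore turned on which of the kidneys that part on the second principal component were included.

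None of the 3 pentose phosphate genes among the 10 passed the test. G6pdx (ENSMUSG00000031400) encodes glucose 6-phosphate dehydrogenase, the entry enzyme of the oxidative branch. It was the least abundant of the 10, at 12.2, 11.8 and 10.6 FPKM in WT-5 to WT-7 in turn, and at 12.3 and 13.3 FPKM in TC-7 and TC-8. TC-11 and TC-12 had 14.7 and 13.5 FPKM. TC-7 was barely above WT-5, and the other BPS-TA kidneys were higher. Limma gave a log2 fold change of 0.21 with a standard error of 0.076 and a confidence interval from 0.033 to 0.38 (adjusted p = 0.0649, exact permutation p = 0.0571). It passed the threshold without TC-7 (0.25, adjusted p = 0.0441) and without TC-7 and TC-8 (0.27, adjusted p = 0.0477), but was 0.033 after centring (adjusted p = 0.759) and 0.047 after quantile normalization (adjusted p = 0.666). G6pdx is X-linked, and transcripts of 4 Y-linked genes were present in all 7 kidneys, with sums of 60.7 to 72.9 FPKM in WT and 68.7 to 76.9 FPKM in BPS-TA kidneys, so the groups did not differ in sex.

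Pgd (ENSMUSG00000028961) encodes 6-phosphogluconate dehydrogenase, the other NADPH-producing enzyme of the branch. It stood at 45.6, 47.0 and 47.8 FPKM in WT-5 to WT-7 in turn, and at 46.6 and 47.6 FPKM in TC-7 and TC-8. TC-11 and TC-12 had 45.2 and 48.2 FPKM. The kidneys of both groups were intermingled. Its log2 fold change of 0.0033 had a confidence interval from -0.10 to 0.11 (adjusted p = 0.963, exact permutation p = 0.943), and it turned to -0.046 after quantile normalization and to -0.17 after centring (adjusted p = 0.0292).

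Taldo1 (ENSMUSG00000025503) encodes transaldolase of the non-oxidative branch. WT-5, WT-6 and WT-7 had 170.2, 167 and 162 FPKM. TC-7 and TC-8 had 151 and 163 FPKM, and TC-11 and TC-12 had 154 and 159.6 FPKM. TC-8 lay within the WT range and the other BPS-TA kidneys below it. The log2 fold change was -0.082 with a confidence interval from -0.19 to 0.024 (adjusted p = 0.199, exact permutation p = 0.114), and it was -0.26 after centring (adjusted p = 0.00307).

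Within kidneys the transcript ratio of Taldo1 to G6pdx shifted slightly, whereas that of Pgd to G6pdx did not pass the test. The ratio of Taldo1 to G6pdx was 13.9, 14.2 and 15.3 in the WT kidneys and 12.3 in both TC-7 and TC-8, with 10.5 and 11.8 in TC-11 and TC-12. Every BPS-TA kidney was below every WT kidney, with a mean log2 ratio 0.31 lower (exact permutation p = 0.0286, adjusted p = 0.0381). The ratio of Pgd to G6pdx was 3.73, 3.99 and 4.53 in the WT kidneys and 3.78, 3.57, 3.08 and 3.57 in the BPS-TA kidneys. These values overlapped, and the mean log2 ratio was 0.22 lower (exact permutation p = 0.0857, adjusted p = 0.0857).

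**Figure D3:**
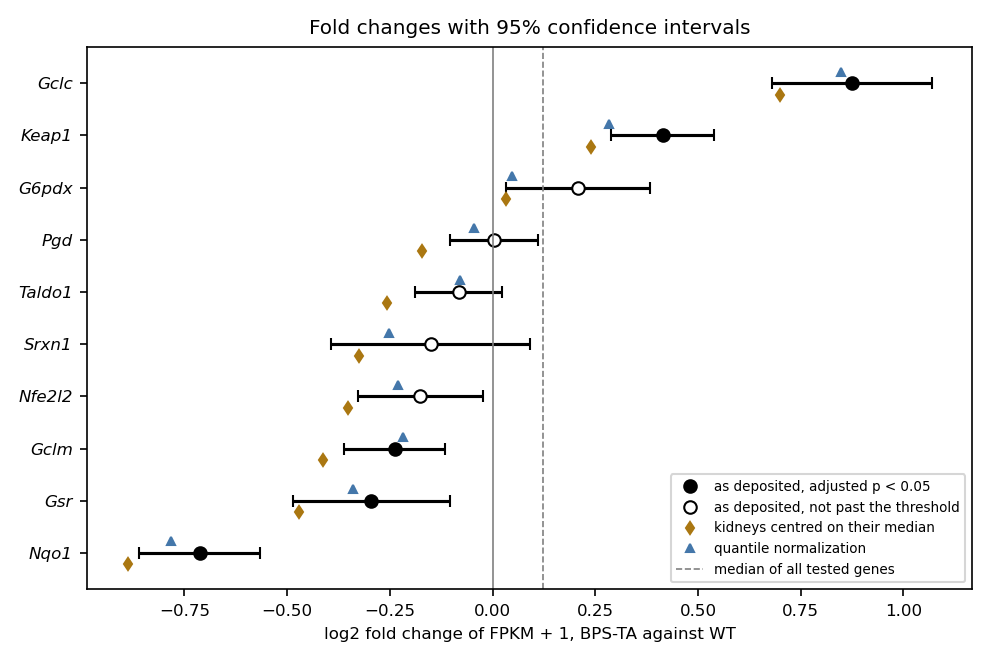
Log2 fold change of FPKM + 1 in 4 BPS-TA against 3 WT kidneys for the 10 genes. Circles give the values as deposited with 95% confidence intervals, filled where adjusted p was under 0.05, diamonds the values with each kidney centred on its median, triangles those after quantile normalization, and the dashed line the median of all tested genes at 0.12. Gclc (0.87) and Keap1 (0.41) lay to the right of that line and Nqo1 (-0.71) farthest to the left, and both scalings moved most genes to the left.

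In order of mean FPKM, the WT kidneys had Gclm (427), Taldo1 (166), Gsr (79.6), Gclc (76.9), Nfe2l2 (50.1), Nqo1 (48.8), Pgd (46.8), Srxn1 (29.2), Keap1 (14.1) and G6pdx (11.5). The kidneys' ranges overlapped between Gsr and Gclc and between Nfe2l2 and Nqo1, and between no other neighbours. In BPS-TA kidneys Gclc (141) moved ahead of Gsr (64.7), and Pgd (46.9) and Nfe2l2 (44.3) preceded Nqo1 (29.4). Ranges of neighbours overlapped between Pgd and Nfe2l2 and between Nqo1 and Srxn1 (26.3).

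Further NRF2 targets moved in both directions. Of 35 listed targets 29 were tested, of which 8 rose, 11 fell and 10 did not pass the test, beside 28.5% of all tested genes higher and 6.56% lower. The share that rose was thus near that of all genes. Their median log2 fold change was -0.036, compared with 0.12 over all genes. Ephx1, which encodes an epoxide hydrolase, rose from 24.5 ± 2.42 (SD, n = 3) to 59.6 ± 5.63 (SD, n = 4) FPKM (log2 fold change 1.25, adjusted p = 7.385e-05). Akr1b8, which encodes an aldo-keto reductase, rose from 0.910 ± 0.101 to 3.35 ± 0.332 FPKM (1.18, adjusted p = 7.304e-05). Akr1b8 and Cbr3, another of the 8 that rose, lay under 1 FPKM in every WT kidney. They passed the filter through BPS-TA kidneys alone, so their calls are a description. With an FPKM of at least 1 required in every kidney, 6 rose and 11 fell. The NADPH-producing malic enzyme gene Me1 rose from 134 ± 5.32 to 224 ± 5.77 FPKM (0.74, adjusted p = 3.748e-05), and Abcc1, an export pump gene for glutathione conjugates, from 3.18 ± 0.806 to 5.63 ± 0.428 FPKM (0.68, adjusted p = 0.00478).

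Among the targets that fell, the glutathione transferase gene Gsta3 stood at 135 ± 3.30 (SD, n = 3) FPKM in WT kidneys and at 71.8 and 94.5 FPKM in TC-7 and TC-8, with 51.6 and 49.3 FPKM in TC-11 and TC-12 (log2 fold change -1.05, adjusted p = 0.00633). Near-identical copies make the level of such transferase genes uncertain. Osgin1, an oxidative stress response gene, fell from 84.0 ± 6.64 to 43.2 ± 4.53 FPKM (-0.95, adjusted p = 0.000280). Abcc2, another conjugate export pump, fell from 77.3 ± 6.74 to 50.7 ± 5.17 FPKM (-0.60, adjusted p = 0.00216), and the ferritin light chain gene Ftl1 from 569 ± 54.2 to 399 ± 72.5 FPKM (-0.52, adjusted p = 0.0197). The call for Ftl1 was lost without WT-6 (-0.45, adjusted p = 0.0740) and without TC-11 and TC-12 (-0.31, adjusted p = 0.0684).

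Of the 13 listed regulators of NRF2 activity 12 were tested, of which 1 rose and 2 fell, beside the same 28.5% and 6.56% of all genes. Their median log2 fold change was 0.030. Nfe2l1, which encodes the related factor NRF1, rose from 74.1 ± 2.96 (SD, n = 3) to 104 ± 7.52 (SD, n = 4) FPKM (log2 fold change 0.49, adjusted p = 0.00123). Syvn1, a ubiquitin ligase gene of the endoplasmic reticulum, fell from 20.1 ± 2.20 to 14.2 ± 0.731 FPKM (-0.47, adjusted p = 0.00370). The small MAF gene Mafg, a partner of NRF2, fell from 20.6 ± 1.22 to 17.4 ± 0.740 FPKM (-0.23, adjusted p = 0.0203). That call was lost without WT-5, WT-6 or TC-11 alone (adjusted p = 0.0697, 0.0622 and 0.0535), and without either pair of BPS-TA kidneys (0.0560 without TC-7 and TC-8, 0.0757 without TC-11 and TC-12), with log2 fold changes of -0.24 to -0.19.

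Most other enzymes of glutathione and thioredoxin metabolism did not pass the test. Of 18 listed genes 17 were tested, and 1 rose, 2 fell and 14 were not called, beside 28.5% of all tested genes higher and 6.56% lower. Their median log2 fold change was -0.038, compared with 0.12 over all genes. After centring 1 was higher and 8 were lower. Chac1, whose product degrades glutathione, rose from 0.407 ± 0.111 (SD, n = 3) to 2.50 ± 0.277 (SD, n = 4) FPKM (log2 fold change 1.31, adjusted p = 7.317e-05). Every WT kidney lay under 1 FPKM for Chac1, which passed the filter through BPS-TA kidneys alone, so its call is a description. Chac2, a relative of Chac1, fell from 41.0 ± 1.51 to 32.6 ± 3.91 FPKM (-0.33, adjusted p = 0.0255). Chac2 missed the threshold without WT-6, WT-7 or TC-12 alone (log2 fold change -0.30, -0.33 and -0.29, adjusted p = 0.0849, 0.0731 and 0.0632) and without TC-11 and TC-12 (-0.33, adjusted p = 0.0837). The same held with totals taken without the selenoprotein genes Gpx1, Gpx2, Gpx3, Gpx4, Txnrd1 and Txnrd2 (-0.30, adjusted p = 0.0524). The size of the change was thus kept while the call was lost. The glutathione peroxidase gene Gpx1 fell as well (-0.62, adjusted p = 0.000200), a call that was lost after quantile normalization (-0.36, adjusted p = 0.0623).

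Of the 20 other pentose phosphate and NADPH enzymes, all tested, 6 rose, 3 fell and 11 were not called, with a median log2 fold change of 0.095. The share that rose was near the 28.5% of all tested genes, of which 6.56% were lower. Mthfd2, which encodes a mitochondrial folate enzyme, rose from 1.79 ± 0.249 (SD, n = 3) to 13.9 ± 1.47 (SD, n = 4) FPKM (log2 fold change 2.42, adjusted p = 2.70e-06). Me3, a mitochondrial malic enzyme gene, rose by a log2 fold change of 0.47 (adjusted p = 0.00120), the ribose phosphate enzyme gene Prps2 by 0.32 (adjusted p = 0.00780) and Me2, a further malic enzyme gene, by 0.30 (adjusted p = 0.0402). Tkt, the transketolase gene of the non-oxidative branch, rose from 106 ± 9.90 to 125.5 ± 8.51 FPKM (0.24, adjusted p = 0.0444), and its groups overlapped. That call was lost after centring (0.066, adjusted p = 0.493) and after quantile normalization (0.22, adjusted p = 0.0606). The cytosolic NADPH-producing isocitrate dehydrogenase gene Idh1 fell from 295 ± 12.6 to 222 ± 16.0 FPKM (-0.41, adjusted p = 0.00274). Aldh1l1, another folate enzyme gene, had a log2 fold change of -0.26 (adjusted p = 0.00719), and Nadk, the NAD kinase gene, of -0.18 (adjusted p = 0.0382). The calls for Prps2, Me2 and Nadk also depended on the setting. Prps2 missed the threshold after centring (0.15, adjusted p = 0.134), after quantile normalization (0.23, adjusted p = 0.0527) and without TC-11 and TC-12 (0.26, adjusted p = 0.0623). Me2 was at 0.036 after quantile normalization (adjusted p = 0.785) and missed the threshold without any 1 kidney other than TC-8 (adjusted p up to 0.135, without WT-7), and Nadk did so without any 1 kidney other than TC-7 or TC-8 (log2 fold change -0.21 to -0.15 over the kidneys left out singly, adjusted p up to 0.128 without WT-7).

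**Figure D4:**
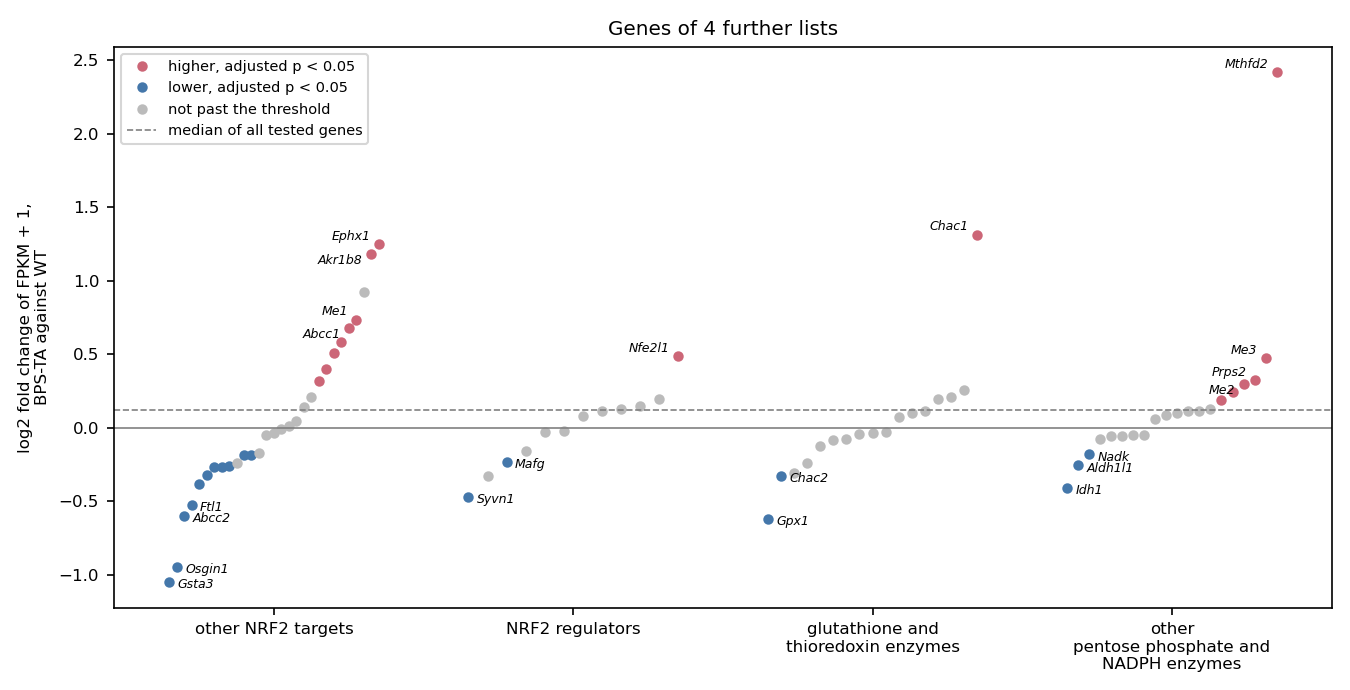
Log2 fold change of FPKM + 1 in 4 BPS-TA against 3 WT kidneys for each tested gene of 4 further lists, ordered by size within a list. Red points were higher and blue points lower with an adjusted p under 0.05, grey points did not pass, and the dashed line is the median of all tested genes. Among other NRF2 targets 8 points are red and 11 blue, and Mthfd2 stands highest at 2.42.

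The genes whose pattern over the 7 kidneys was most like that of Nqo1 were Ropn1l (Pearson r = 0.9974), Cyp2d9 (0.9940), Hspe1 (0.9915), Ido2 (0.9913) and Psmd6 (0.9908). For G6pdx they were Mxra8 (0.9947), Arvcf (0.9936), Itgb5 (0.9898), Cyp4f16 (0.9890) and Limk1 (0.9884). These correlations were taken over both groups together, were the highest among 12036 genes, and are given as a description alone.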

How the data were processed

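Cortex RNA was sequenced by the authors as single reads of 51 bases (HiSeq2000). Their processing notes name mm9 and DESeq 1.32, while the aligner, the counter and the annotation are not given in these sources. The authors deposited a table without a named unit, read here as FPKM because the totals differ between kidneys. Column names WT and TC (read as triple cross) gave the groups. The methods count more WT kidneys than the 3 used here. The sample titles name biological replicates, but the columns do not settle whether the kidneys came from separate mice. The p-values therefore measure the spread between these samples, which may not be that between mice. A second deposited table, the authors' own fold changes and p-values, was not used.

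The 83 entries of 37 repeated identifiers were left out. Genes that reached an FPKM of 1 in 3 or more kidneys were fitted as log2(FPKM + 1) in limma 3.58.1 (R 4.3.3) with a mean-variance trend, in place of a count test, and the pseudocount understates changes of low genes. Confidence intervals are at 95%, and exact permutation tests were two-sided over 35 splits. The steps were tested on simulated data. Python 3.11.15, numpy 2.4.6, pandas 2.3.3 and matplotlib 3.10.9 were used. Named are the 10 genes, up to 4 risers and 4 fallers of each list, Tkt as a further pathway enzyme, and the 5 genes most like Nqo1 and G6pdx. The genes and lists were chosen with earlier results of these data known. Alternatives were 3 other scalings, no trend, other filters, a pseudocount of 0.1, and kidneys left out singly or in pairs. One of the scalings took totals without the selenoprotein genes Gpx1, Gpx2, Gpx3, Gpx4, Txnrd1 and Txnrd2, and kept other selenoprotein genes. Start windows came from RefSeq (GRCm38.p6), a build other than that of the files.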

Additional observations from a re-analysis of the deposited data

How the results depend on the processing

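Keap1, Nqo1 and Gclc kept their direction and their side of the threshold under all 16 alternatives. The 4 ratios kept their direction under all 8 alternatives, and on log2(FPKM + 1) values also their side of the threshold. With a kidney left out the exact test cannot go below p = 0.0667 (without a WT kidney) or 0.1 (without a BPS-TA kidney), so that only the size can be read. The log2 difference was then -1.19 to -1.04 for Gclm to Gclc, -0.34 to -0.26 for Taldo1 to G6pdx, -0.62 to -0.52 for Nqo1 to Nfe2l2 and -0.28 to -0.14 for Pgd to G6pdx. Genes higher in BPS-TA kidneys numbered 1416 after quantile normalization, 1515 after centring, 1926 without TC-11 and TC-12, and 2276 (without WT-7) to 3301 with single kidneys left out, against 3425. Genes lower numbered 1724, 2480, 446 and 484 (without WT-6) to 905 in the same settings, against 790. Of the 10 genes, 7 were lower after centring, against 3. Other NRF2 targets higher were 5 and lower 6 without TC-11 and TC-12, and lower 7 (without WT-6) to 12 with single kidneys left out. NRF2 regulators higher were 2 with totals taken without the named selenoprotein genes and 2 without TC-7 and TC-8, and lower 5 after centring, 1 without TC-11 and TC-12, and 1 (without WT-6 or TC-11) to 3 with single kidneys left out. Glutathione and thioredoxin enzymes higher were 2 after quantile normalization and 2 without TC-7 and TC-8, but 0 with an FPKM of at least 1 required in every kidney and 0 without TC-11 and TC-12. Chac1 drops under the filter with that requirement and without either pair of BPS-TA kidneys. The 2 higher without TC-7 and TC-8 are therefore other genes. Those lower were 1 after quantile normalization, 8 after centring, 4 without TC-7 and TC-8, 1 without TC-11 and TC-12, and 1 (without WT-6, WT-7 or TC-12) to 3 with single kidneys left out. Pentose phosphate and NADPH enzymes higher were 3 after quantile normalization, 2 after centring, 3 without TC-11 and TC-12, and 3 (without WT-6) to 5 with single kidneys left out, and 7 were lower after centring. Direction reversed for Srxn1 without TC-11 and TC-12 (0.0069), and for Pgd after quantile normalization (-0.046), after centring (-0.17), without TC-7 and TC-8 (-0.0032) and with single kidneys left out (-0.015 to 0.021). The cause of these changes was not tested. No paired analysis was possible because the column numbers match no replicate number of the labels. The unknown read depth limits what can be said of genes near an FPKM of 1.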

Other observations

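The genes named here were chosen after their values were seen. In Blvrb and Glrx the kidneys TC-11 and TC-12 lay above TC-7 and TC-8, the opposite of Srxn1. Blvrb, the biliverdin reductase B gene, which is also abundant in red blood cells, stood between 14.6 and 17.3 FPKM in WT kidneys, at 18.0 and 21.2 FPKM in TC-7 and TC-8, and at 47.9 and 51.8 FPKM in TC-11 and TC-12 (log2 fold change 0.92, adjusted p = 0.0788). Marker sums in TC-7 and TC-8 against TC-11 and TC-12 were 31.4 and 28.8 against 55.9 and 61.4 FPKM for fibroblasts, 102 and 102 against 135 and 159 FPKM for macrophages, and 496 and 585 against 469.8 and 503 FPKM for red blood cells. The part of these cells in the values of Blvrb and Glrx was not tested. Glrx, the glutaredoxin gene, stood between 23.4 and 26.5 FPKM in WT kidneys, at 22.1 and 19.5 FPKM in TC-7 and TC-8, and at 40.7 and 39.8 FPKM in TC-11 and TC-12 (log2 fold change 0.21, adjusted p = 0.549). Aox1, an aldehyde oxidase gene under the filter, lay between 0.043 and 0.070 FPKM in WT and between 0.516 and 0.734 FPKM in BPS-TA kidneys, without overlap (exact two-sided permutation p = 0.0286). That p is not adjusted and is the smallest the test can give. Groups did not overlap for 43.9% of tested genes, so for a gene picked by its values it is a description alone. Hmox1, the heme oxygenase gene induced by both NRF2 and heme, overlapped between the groups at 20.3 to 26.0 and 25.4 to 27.7 FPKM (log2 fold change 0.21, adjusted p = 0.0831).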
